A study of Rattus norvegicus with 32 samples.

Results

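The nuclear genes for respiratory complexes II to V were described in RNA sequencing of the rat hippocampus. They were taken as every row of the deposited count table named Sdha, Sdhb, Sdhc, Sdhd, Cyc1 or Cycs, or with a name that starts with Uqcr, Cox4, Cox5, Cox6, Cox7, Cox8 or Atp5. The rule used names alone and found 51 of 32883 rows: 4 for complex II, 10 for complex III, 1 for cytochrome c, 20 for complex IV and 16 for complex V. Of these, 47 had enough counts to be tested, and 41 had a mean of at least 10 CPM, counts scaled to library totals. Complex I and the mitochondrially encoded subunits are not members. No row is named Cox7a2, Atp5f1c or Atp5mpl, so these subunits are not described.

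The series holds 1 hippocampus from each of 32 rat pups, all with the wild-type genotype (WT), in 4 groups. IS control (n = 8) was iron sufficient without insulin, and IS insulin (n = 7) was iron sufficient with insulin given through the nose. ID control (n = 9) and ID insulin (n = 8) came from dams fed an iron-deficient diet with 3 to 6 ppm iron from gestational day 3 to postnatal day 7. Insulin was given 2 times a day from postnatal day 8 to 21. The labels give collection on postnatal day 7 or 21 without saying which applies to a pup, so in comparisons of insulin with control a difference in age cannot be told apart from insulin if control pups were collected on day 7. The labels also do not say which pups were littermates, and p-values measure only the spread between these samples. Each title opens with a number shared by all pups of a group, but in ID control it is 69 for 5 pups and 70 for 4.

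The respiratory chain passes electrons from nutrients to oxygen and stores the energy as a proton gradient across the inner mitochondrial membrane, which complex V, the ATP synthase, uses to make ATP. Complex II (succinate dehydrogenase) also works in the citric acid cycle, complex III hands electrons to cytochrome c, and complex IV (cytochrome c oxidase) passes them to oxygen. Complexes II, III and IV and cytochrome c carry iron in iron-sulfur clusters or haem, which ties them to iron supply. Neurons use most of their ATP for ion pumping and synaptic signalling, and the early postnatal hippocampus is a site of high iron uptake. In bulk tissue, fewer cells of a type and less RNA per cell cannot be told apart.

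Nuclear respiratory genes are known targets of the factors NRF-1, GABP (an ETS-family factor) and YY1, and their core motifs were looked for on both strands of the RefSeq promoter windows of assembly GRCr8. A window runs from 250 bases before to 50 bases after a gene's start, and 41 of the 49 member names had one. The NRF-1 core GCATGCGC was in 8 of the 41 windows (19.51%), against 2.66% of all 27457 windows. The GABP core CCGGAAG was in 13 (31.71%, against 9.22%) and the YY1 core AAGATGGC in 7 (17.07%, against 3.44%). At least 1 of these 3 was in 20 member windows (48.78%, against 14.06%). The TATA box core TATAAA was in 5 (12.2%, against 14.26%). A match is a description of letters, not a shown binding site. The stretches of 5 members are printed. Cox4i1 is the only member called below, and Uqcrc2 the member with the lowest p between IS insulin and IS control. Cox8a, Atp5me and Atp5pf are some of the members called when 1 library is left out. Also called in this way were Cox6a1, Uqcr11, Cox6b1, Cox7a2l2, Sdhd and Atp5f1d, which are not printed. Of these, Sdhd had GABP matches, and no match to the 3 factors was found for the others, which may lack a window. All 5 printed stretches hold a GABP match, so they do not represent the members. GABP and NRF-1 core matches are in capitals. The Cox4i1 stretch is the 27 bases that hold its pair of GABP matches, at bases 3 to 9 and 23 to 29 when the start site is base 0 (chr19:65630386-65630412, plus strand). The others are the 100 bases before the start of Cox8a (chr1:213833624-213833723, minus strand), Atp5me (chr14:1464760-1464859, plus strand), Atp5pf (chr11:37375102-37375201, minus strand) and Uqcrc2 (chr1:184599140-184599239, plus strand). In Atp5me the 10 capitals that come first hold the NRF-1 core on both strands, overlapping each other.
Cox4i1: CTTCCGGtgcgggacccgctCTTCCGG
Cox8a: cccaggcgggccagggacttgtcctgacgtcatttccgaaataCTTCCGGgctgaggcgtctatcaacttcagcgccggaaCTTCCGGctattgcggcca
Atp5me: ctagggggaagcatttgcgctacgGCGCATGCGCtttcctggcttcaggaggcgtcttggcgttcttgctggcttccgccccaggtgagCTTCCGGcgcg
Atp5pf: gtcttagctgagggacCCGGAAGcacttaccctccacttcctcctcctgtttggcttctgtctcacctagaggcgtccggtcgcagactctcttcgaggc
Uqcrc2: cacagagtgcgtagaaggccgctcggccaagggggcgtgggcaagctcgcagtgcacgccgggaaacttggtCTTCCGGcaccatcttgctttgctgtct

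Total counts were 19619345 to 28062630 per library. Of the 8 hippocampal markers listed, 6 were tested, and the summed level of all 8 was 560 to 957 CPM over all libraries. Summed neuron markers were 7508 to 10922 CPM. The 12 choroid plexus markers, from the tissue of the neighbouring ventricle, varied most, at 141 to 4025 CPM in IS control, 1543 to 6607 in ID control, 175 to 5264 in IS insulin and 479 to 7091 in ID insulin. No marker of these 3 lists was at 0 in all libraries, and their part in the results below was not tested.

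A few libraries stood apart. For each library, a score was taken as the mean log2 CPM difference from the IS control mean over the 41 members with at least 10 CPM. Scores were -0.081 to 0.054 in IS control, -0.08 to 0.172 in ID control, -0.005 to 0.244 in IS insulin and -0.215 to 0.407 in ID insulin. The group ranges overlapped, and that of ID insulin enclosed all the others. Its highest library was replicate 3 and its lowest replicate 6, while the 2 highest of IS insulin were replicates 1 (0.244) and 2 (0.217).

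**Figure D1:**
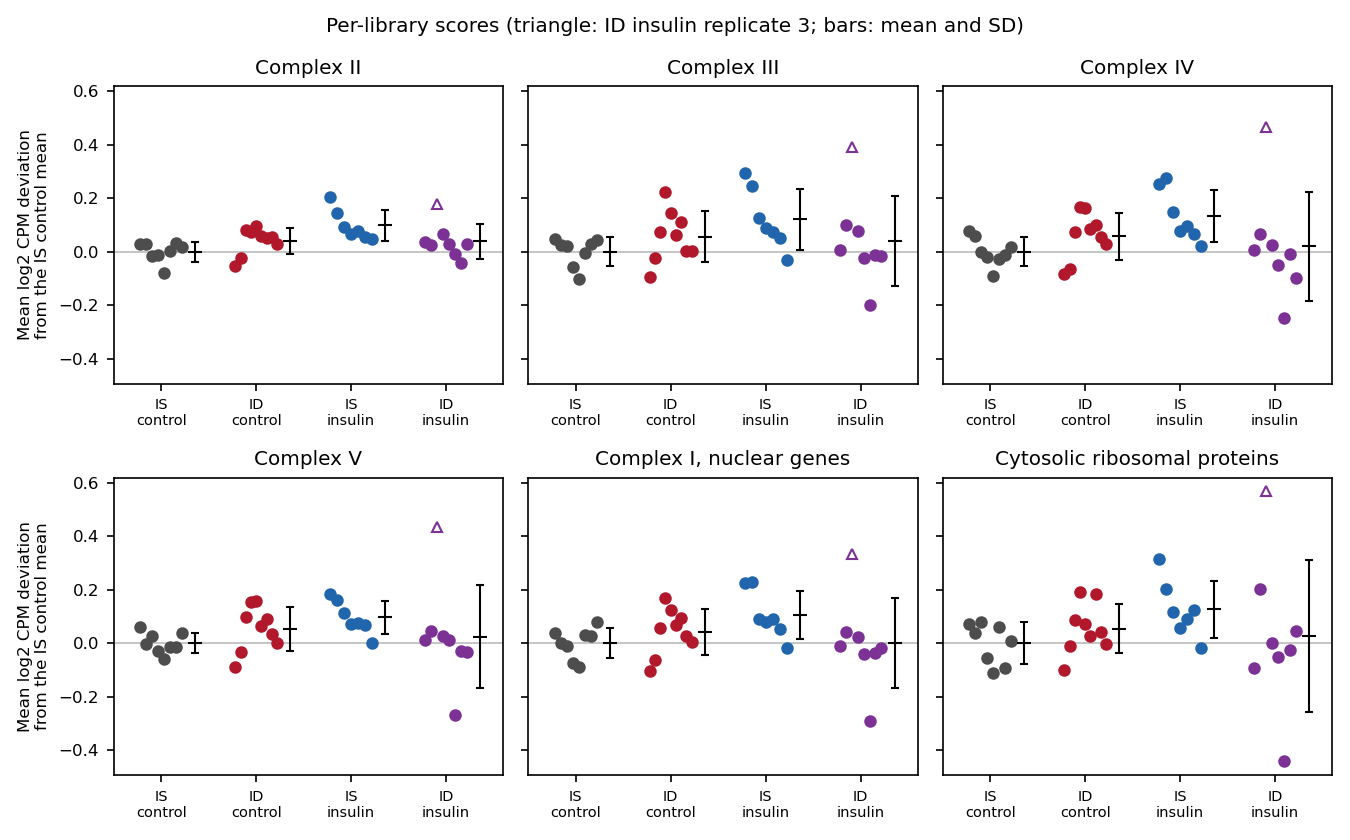
Score of each library by group, for the members of complexes II, III, IV and V with at least 10 CPM, for nuclear complex I genes and for cytosolic ribosomal protein genes. The vertical axis is the mean log2 CPM difference from the IS control mean, and the bars give mean and SD (n = 8, 9, 7 and 8). ID insulin replicate 3 (triangle) was at 0.466 for complex IV and 0.569 for ribosomal proteins.

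ID insulin replicate 3 was the highest library of its group in 38 of the 47 tested members and the highest of all 32 libraries in 19. ID insulin replicate 6 was the lowest of its group in 29, and IS insulin replicate 1 or 2 was the highest of its group in 33. The same libraries stood apart in other genes. Cytosolic ribosomal protein genes had scores of 0.569 in ID insulin replicate 3, -0.443 in replicate 6, and 0.316 and 0.203 in IS insulin replicates 1 and 2. The 13 mitochondrially encoded subunits had 0.439, -0.323, 0.452 and 0.398 in these libraries, and the 35 tested nuclear complex I genes 0.335, -0.29, 0.223 and 0.229. In the same order of libraries, neuron markers had -0.498, 0.01, -0.186 and -0.075. Hippocampal markers had -0.472, -0.086, -0.326 and -0.445. The part of these library-wide shifts in the members' levels was not tested, and results that rest on a library are given with and without it.

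**Figure D2:**
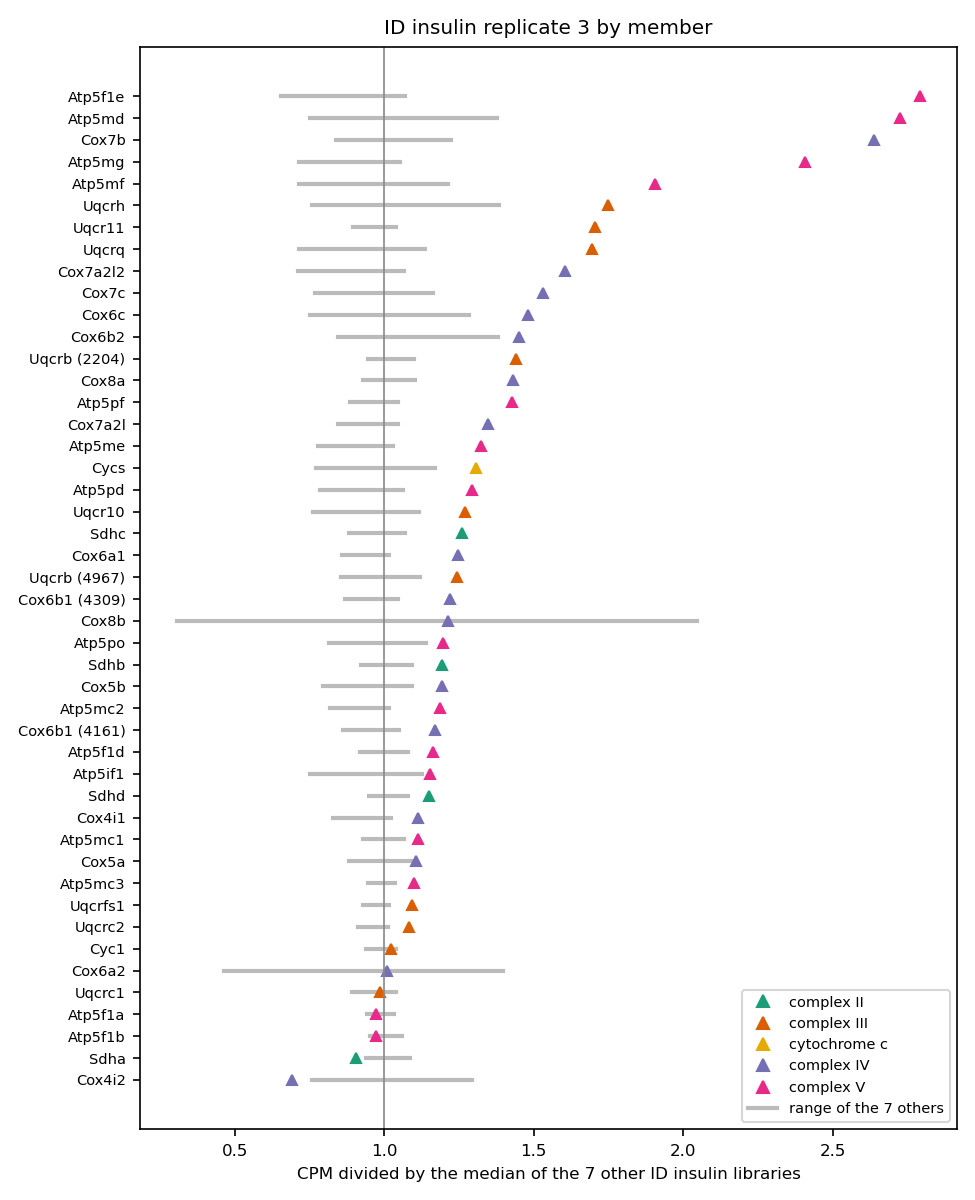
CPM of 46 tested members in ID insulin replicate 3 (triangles, coloured by complex) divided by the median of the 7 other ID insulin libraries, whose range is the grey bar. Atp5f1e lies at 2.79 and Atp5f1b near 1, and Atp5pb (ratio 6.94) is left out of the plot.

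The elevation in ID insulin replicate 3 was uneven among subunits of the same complex. Atp5f1e, the small epsilon subunit of the ATP synthase head, was at 271 CPM there against 63.8 to 104 CPM in the 7 other libraries of its group. Cox7b, a small complex IV subunit, was at 340.2 CPM against 108 to 158, and Atp5mg, the g subunit of the ATP synthase membrane part, at 457 against 136 to 199.9. By contrast the catalytic Atp5f1b and Atp5f1a and the core subunit Uqcrc1 of complex III were within the range of the other 7. Copies were counted by RefSeq symbols built on the member's own name, so copies under other symbols may be missed. By this count RefSeq lists 8 pseudogenes and 3 further genes of like name for Atp5mg, 3 pseudogenes for Cox7b, 1 for Atp5f1e and 2 for Atp5f1b, and none for Atp5f1a and Uqcrc1. Reads shared with copies make the counts of the first 4 uncertain. Members without a copy so named were raised in replicate 3 as well. Uqcrh was at 1.75 and Uqcrq at 1.69 times the median of the 7 other libraries. The part of copies in the uneven elevation was not tested.

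Few members differed between the groups past the test, which was edgeR's quasi-likelihood F-test over all 15439 genes with Benjamini-Hochberg adjustment at 0.05. Between ID control and IS control 0 of the 47 tested members were called, where 0.291% of all genes were, and 4 members (8.51%) had an unadjusted p under 0.05 (all genes 11.9%). Between ID insulin and ID control 1 member was lower and none higher, where 3.82% of all genes were called and 1.86% were lower, and 3 members (6.38%) had an unadjusted p under 0.05 (all genes 19.5%). Between IS insulin and IS control 0 members were called, where 0.123% of all genes were, and 15 (31.9%) had an unadjusted p under 0.05 (all genes 16.3%). Between ID insulin and IS insulin 0 were called (all genes 2.45%), with 7 (14.9%) at an unadjusted p under 0.05 (all genes 20.1%). The interaction of diet and insulin, the insulin difference in ID pups minus that in IS pups, also called 0 (all genes 0.939%), with 11 (23.4%) at an unadjusted p under 0.05 (all genes 17.1%). At these shares of called genes, a count of 0 or 1 called among 47 members is near the share over all genes.

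The medians of the members' log2 differences lay between -0.12 and 0.13, while single members with few counts reached -0.94 (Cox8b, ID control against IS control) and 1.89 (Atp5pb, ID insulin against IS insulin), neither of which passed the test. The median log2 difference of ID control from IS control was 0.06, with 39 of 47 members above 0, where the median over all genes tested was 0.01 and 52.1% were above 0. IS insulin differed from IS control by a median of 0.13, with 44 of 47 above 0 (all genes 0.01, 53.5%). Without IS insulin replicates 1 and 2 that median was 0.06. ID insulin differed from IS insulin by a median of -0.07, with 8 of 47 above 0 (all genes 49.8%). That median was -0.14 without ID insulin replicate 3 and -0.03 without IS insulin replicates 1 and 2. ID insulin differed from ID control by a median of -0.01, with the signs split at 21 of 47 above 0 (all genes 51.2%). Here the median was -0.06 without ID insulin replicate 3 and turned to 0.02 without ID insulin replicate 6 and 0.004 without ID control replicate 4. The interaction had a median of -0.12, with 7 of 47 above 0 (all genes 47.2%), which became -0.19 without ID insulin replicate 3 and -0.06 without IS insulin replicates 1 and 2. With each library's mean ribosomal protein level as a covariate, the medians were 0.03 for ID control and 0.04 for IS insulin against IS control, -0.0021 for ID insulin against ID control, -0.04 for ID insulin against IS insulin and -0.06 for the interaction. With the second number of the titles as a block, 2 medians changed sign. They were -0.002 for ID control against IS control and 0.05 for ID insulin against ID control. The labels do not say what that number stands for. Such shifts were not particular to the members. The 35 tested nuclear complex I genes had medians of 0.06 for ID control and 0.12 for IS insulin against IS control (34 of 35 above 0). Theirs were -0.05 for ID insulin against ID control, -0.11 for ID insulin against IS insulin and -0.14 for the interaction. In the same order, 83 ribosomal protein genes had 0.04, 0.13 (77 of 83 above 0), -0.02, -0.10 and -0.15. The comparisons share groups and are not independent of each other.

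**Figure D3:**
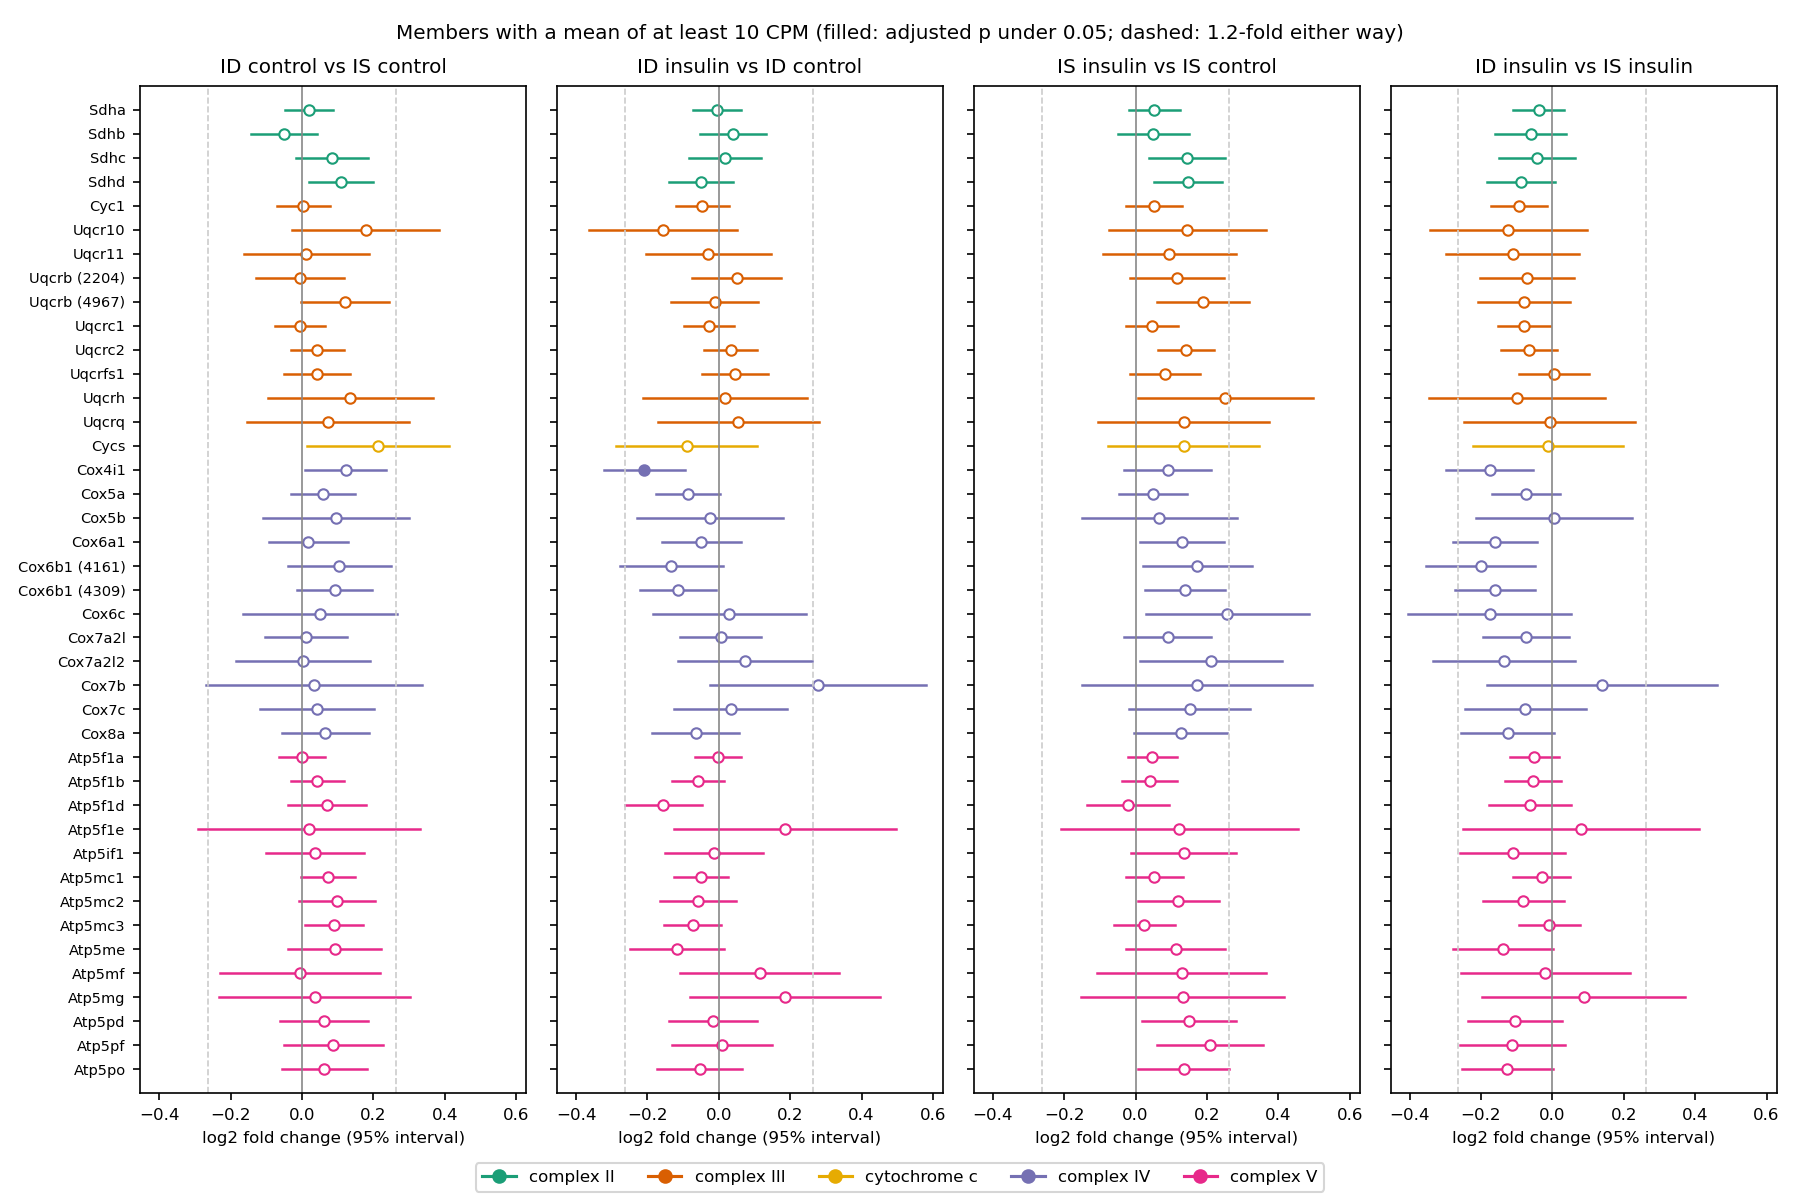
Log2 fold change with 95% interval of the 41 members with at least 10 CPM in 4 comparisons, coloured by complex. Filled points are called, which holds for Cox4i1 in ID insulin against ID control. Dashed lines mark 1.2-fold either way, and between ID control and IS control 32 of the 41 intervals lie inside them.

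For the 41 members with at least 10 CPM, the 95% intervals were set beside fold limits. They hold for 1 member at a time, without adjustment for their number, and like the p-values measure only the spread between these samples. Between ID control and IS control 32 of the 41 intervals lay within 1.2-fold either way and all 41 within 1.5-fold. The counts within 1.2-fold were 31 for ID insulin against ID control, 23 for IS insulin against IS control, 28 for ID insulin against IS insulin and 12 for the interaction, and 40 of 41 interaction intervals were within 1.5-fold. The median within-group SD of these members was 0.125 on the log2 scale, beside 0.126 for the 9696 tested genes of at least 10 CPM. It was smallest for Atp5f1a (0.056), Sdha (0.062) and Atp5f1b (0.064) and largest for Atp5f1e (0.308) and Cox7b (0.302).

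Complex II is encoded only in the nucleus. Sdha holds the flavin that oxidises succinate, Sdhb holds the iron-sulfur clusters, and Sdhc and Sdhd anchor the complex and bind haem. None of the 4 was called in any of the 5 comparisons, where 0.123% to 3.82% of all genes were. Sdhd was at 101 to 129 CPM in IS control (median 121), 122 to 142 in ID control (128), 123 to 145 in IS insulin (130.2) and 116 to 141 in ID insulin (123). Most IS insulin libraries lay above every IS control library (6 of 7), but in no comparison were the groups apart. The log2 difference of ID control from IS control was 0.11 ± 0.04 (SE, edgeR adjusted p = 0.304) and that of IS insulin from IS control 0.15 ± 0.05 (adjusted p = 0.127). For Sdhb, IS control was at 94.6 to 105 CPM (median 97.2), ID control at 88.2 to 108 (93.7), IS insulin at 95.7 to 116 (99.5) and ID insulin at 87.2 to 113 (95.1). These ranges overlapped almost fully, and Sdhb was the 1 subunit of complex II below IS control in ID control, by a log2 difference of -0.05 ± 0.05 (adjusted p = 0.709). Sdhc had log2 differences of 0.08 for ID control and 0.14 for IS insulin against IS control (adjusted p = 0.515 and 0.171). Sdha differed by 0.02 and 0.05 in the same comparisons.

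Complex III and cytochrome c hold the other nuclear subunits that carry iron. Uqcrfs1, the Rieske iron-sulfur protein, was at 113 to 131 CPM in IS control (median 122), 111 to 137 in ID control (122), 115 to 145 in IS insulin (129) and 119.8 to 141 in ID insulin (129). Cyc1, cytochrome c1, was at 158 to 176 CPM in IS control (166), 149 to 186 in ID control (165), 162 to 176 in IS insulin (173) and 151 to 168 in ID insulin (163). The groups overlapped for both, and the log2 differences of ID control from IS control were 0.04 ± 0.05 and 0.00 ± 0.04 (SE, edgeR adjusted p = 0.758 and 0.983). Cycs, the soluble electron carrier cytochrome c, was at 10.98 to 14.1 CPM in IS control (12.5), 11.8 to 16.1 in ID control (14.0), 9.99 to 19.6 in IS insulin (12.6) and 9.95 to 16.9 in ID insulin (13.5). Its log2 difference of 0.21 ± 0.10 between ID control and IS control was the largest among the 41 members there, with an interval of 0.01 to 0.41 (adjusted p = 0.382). RefSeq lists 7 pseudogenes of Cycs, so its counts are uncertain. Of the 6 members that bind iron-sulfur clusters or haem, 5 were above IS control in ID control, with a median log2 difference of 0.06 and 0 called. This was like all 47 tested members, of which 39 were above 0 with a median of 0.06. Of all genes 0.291% were called there, so 0 of 6 is near that share.

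Among the other complex III members, Uqcrc2, a core subunit, had the lowest p between IS insulin and IS control. It was at 264 to 295 CPM in IS control (median 286), 276 to 312 in ID control (294), 288 to 349 in IS insulin (306) and 275 to 326 in ID insulin (301). In IS insulin 6 of 7 libraries were above all 8 of IS control, but the lowest was not. The log2 difference was 0.14 ± 0.04 (SE), or 10.2% with an interval of 4.4% to 16.4%, and edgeR's adjusted p was 0.0999, while DESeq2 called it (adjusted p = 0.0433). Uqcrb, a small subunit that binds near the ubiquinone site, has 2 rows in the table that the last digits of their gene IDs tell apart. The row ending in 4967 differed by 0.19 ± 0.06 in that comparison (adjusted p = 0.147) and the row ending in 2204 by 0.12 ± 0.06 (adjusted p = 0.376). Uqcr10, a small subunit, reached 83.8 CPM in ID control replicate 4, where the 8 others of its group were at 42.3 to 55.5 CPM. Of the 10 complex III members, 10 had a positive log2 difference between IS insulin and IS control and 10 a negative one in the interaction, and none was called. Over all genes 53.5% and 47.2% were above 0, and 0.123% and 0.939% were called. The complex III score was 0.294 and 0.245 in IS insulin replicates 1 and 2 and at most 0.126 in the others of that group. Subunits of 1 complex are not independent of each other.

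Complex IV held the only member that was called. Cox4i1, the common form of the regulatory subunit 4, was at 302 to 378 CPM in IS control (median 353), 338 to 412 in ID control (385), 316 to 409 in IS insulin (373) and 285 to 383 in ID insulin (346). ID insulin replicates 2, 6 and 7, at 290.2, 285 and 300.4 CPM, were below every ID control library, and the other 5 overlapped with that group. Cox4i1 fell by 0.21 on the log2 scale from ID control to ID insulin (SE 0.06, edgeR adjusted p = 0.0327), a change of -13.4% with an interval of -20.1% to -6.28%. In ID control it was 0.12 ± 0.06 above IS control (adjusted p = 0.382), and ID insulin was 0.18 ± 0.06 below IS insulin (log2 difference -0.18, adjusted p = 0.0943). Its interaction was -0.30 ± 0.08 (adjusted p = 0.0647), which DESeq2 called (adjusted p = 0.0247).

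The call of Cox4i1 between ID insulin and ID control was close to the threshold. Leaving out ID control replicate 4, 5, 6 or 7 gave adjusted p = 0.0509, 0.06, 0.0518 and 0.05, and leaving out ID insulin replicate 2, 6 or 7 gave 0.0595, 0.056 and 0.0534. It was not called with the 2 groups fitted alone (adjusted p = 0.0655), nor against ID control pups of title number 69 (0.177) or 70 (0.0817) alone. Over the fits with 1 library left out the log2 difference stayed between -0.24 and -0.18. Markers of other cell types moved in the same comparison. Of those tested, 5 of 9 meninges and fibroblast markers, 3 of 12 endothelial and mural, 1 of 8 astrocyte, 1 of 8 microglial and 1 of 6 hippocampal markers were lower in ID insulin. Higher there were 4 of 7 blood markers, 3 of 12 myelin markers (1 lower) and 2 of 7 thalamus markers (1 lower), and none of 10 neuron or 11 choroid plexus markers was called. Of all genes 3.82% were called in this comparison. The score of the thalamus markers was 1.54 in ID insulin replicate 5 and -0.155 to 0.416 in the other libraries of its group. The part of these markers in the Cox4i1 difference was not tested.

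**Figure D4:**
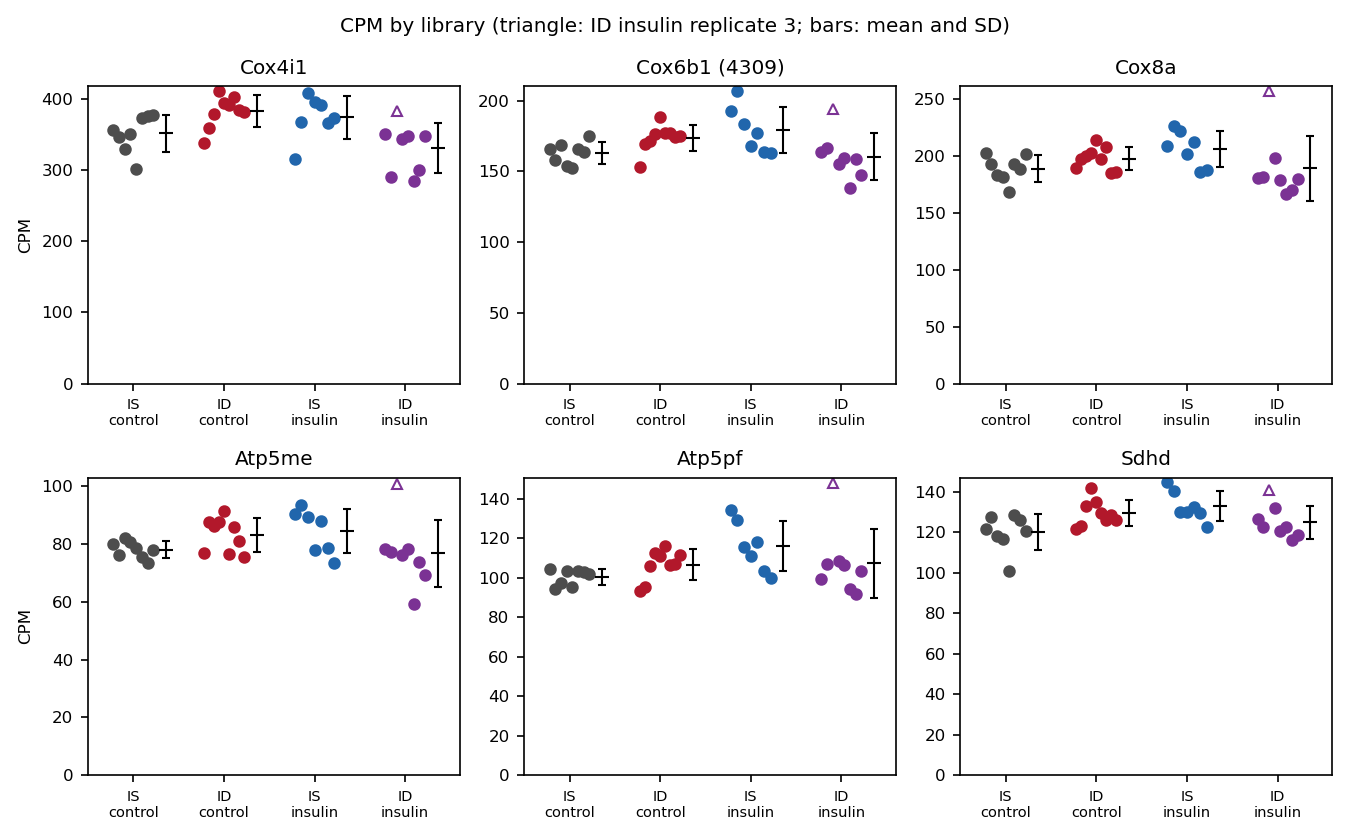
CPM of Cox4i1, the Cox6b1 row ending in 4309, Cox8a, Atp5me, Atp5pf and Sdhd in each library by group, with mean and SD (n = 8, 9, 7 and 8). ID insulin replicate 3 is the triangle, at 257 CPM for Cox8a, where the 7 others of its group lie between 167 and 198.

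Cox4i2, the form of subunit 4 known as hypoxia responsive and high in lung, was low. Its CPM was 2.05 to 3.92 in IS control (median 2.64), 1.45 to 3.26 in ID control (2.94), 1.49 to 3.99 in IS insulin (2.75) and 2.02 to 3.77 in ID insulin (2.73). The groups overlapped, and the log2 difference of ID control from IS control was -0.08 ± 0.18 (SE, edgeR adjusted p = 0.908). Cox4i2 gave 0.782% ± 0.18 of the CPM of both subunit 4 genes in IS control (SD, n = 8), 0.68% ± 0.182 in ID control (n = 9), 0.722% ± 0.188 in IS insulin (n = 7) and 0.841% ± 0.18 in ID insulin (n = 8). This share is not adjusted for transcript length. The other tissue forms were low in the same way. Cox6a2, the heart and muscle form of subunit 6a, ranged from 0.279 to 3.41 CPM, Cox6b2, the testis form of 6b, from 2.04 to 4.18, and Cox8b, a heart and muscle form of subunit 8, from 0.101 to 1.39. Cox7a1, the heart and muscle form of 7a, was at 0 in some libraries of every group and at most 0.719 CPM, and was not tested. Cox7b2 stayed at or under 0.184 CPM, and Cox8c and Cox6c-ps1 were at 0 in all libraries.

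**Figure D5:**
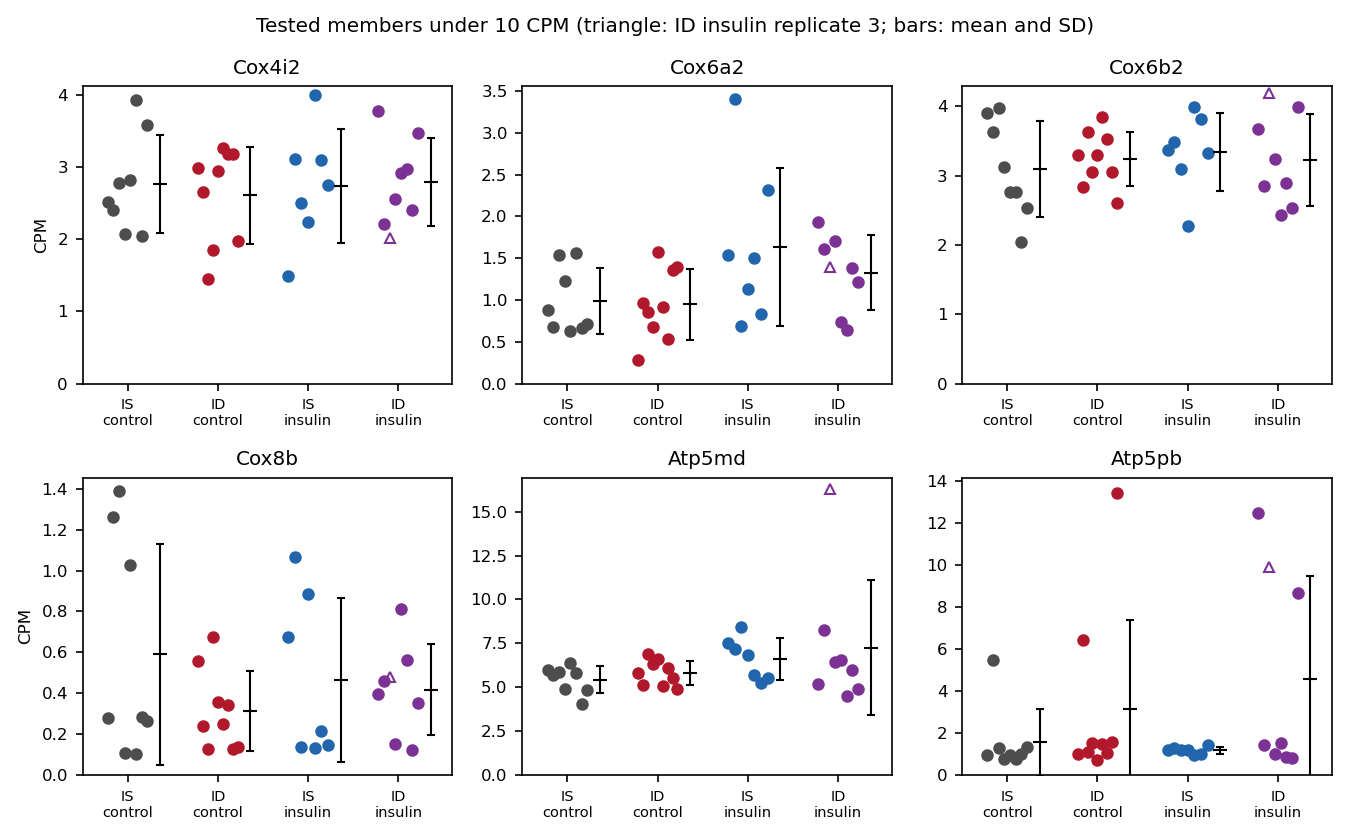
CPM of the 6 tested members with a mean under 10 CPM by group, with mean and SD (n = 8, 9, 7 and 8), bars being cut off at 0. Atp5pb is near 1 CPM in most libraries and between 5.48 and 13.5 CPM in 6 of them.

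Cox6b1, a subunit at the dimer interface, has 2 rows. The row ending in 4309 was at 152 to 175 CPM in IS control (median 165), 153 to 188 in ID control (175), 163 to 207 in IS insulin (177) and 138 to 194 in ID insulin (159). In ID insulin 5 of 8 libraries were below all 7 of IS insulin, while replicate 3, at 194 CPM, lay inside that group's range. The log2 difference of ID insulin from IS insulin was -0.16 ± 0.06 (SE, edgeR adjusted p = 0.0957) and the interaction -0.25 ± 0.08 (adjusted p = 0.0848). The row ending in 4161 had -0.20 ± 0.08 and -0.31 ± 0.10 (adjusted p = 0.126 and 0.119), from levels of 15.0 to 23.8 CPM. The rows may share reads, so they are not independent of each other. Cox6a1, the common form of 6a, had -0.16 ± 0.06 between ID insulin and IS insulin (adjusted p = 0.112).

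Cox8a, the common form of subunit 8, was at 168 to 203 CPM in IS control (median 190.5), 185 to 214 in ID control (198), 186 to 226 in IS insulin (209) and 167 to 257 in ID insulin (179.9). With ID insulin replicate 3 at the top, its log2 difference of ID insulin from IS insulin was -0.13 ± 0.06 (edgeR adjusted p = 0.267). Cox7a2l, which joins complexes III and IV in supercomplexes, had -0.07 ± 0.06 there (adjusted p = 0.513). Cox7a2l2, a row with a like name whose product is uncertain, had -0.13 ± 0.10 (adjusted p = 0.455). Of the 16 tested complex IV members, 13 were below IS insulin in ID insulin, with a median of -0.13 and 0 called. Over all genes 49.8% were above 0 and 2.45% were called in that comparison.

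Leaving out ID insulin replicate 3 changed the counts against IS insulin. Without it, 8 members were lower in ID insulin than in IS insulin, namely Atp5me, Cox6a1, Atp5pf, Uqcr11, Cox4i1, Cox8a, Cox6b1 (4309) and Cox7a2l2, where 4.87% of all genes were called. The interaction then called 7 members, all negative, namely Atp5me, Atp5pf, Cox4i1, Cox8a, Sdhd and both Cox6b1 rows, where 3.85% of all genes were called. For Cox8a the difference was then -0.20 (adjusted p = 0.0157) and for Cox6b1 (4309) also -0.20 (0.0193). Leaving out replicate 6 as well, which is the lowest library, gave 4 members for ID insulin against IS insulin (Cox6a1, Uqcr11, Cox8a and Cox6b1 (4309), all genes 2.22%) and 3 for the interaction (Cox4i1, Cox8a and Cox6b1 (4309), all genes 2.34%). The interaction also called Cox4i1 and Cox6b1 (4309) without ID control replicate 1 (all genes 2.53%). Without IS insulin replicate 1, Cox4i1 was the 1 member called between ID insulin and IS insulin (all genes 2.17%) and in the interaction (all genes 0.637%). Without IS insulin replicates 1 and 2 the interaction called 0 (all genes 0.16%). Of the 32 fits without 1 library, 30 kept a count of 0 for ID insulin against IS insulin and 29 for the interaction. Replicate 3 of ID insulin was the highest of its group in 38 of the 47 members, so leaving it out lowers that group's level in most of them.

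In complex V, the members fall into the catalytic head, the membrane rotor and the stalk and membrane parts that hold them together. The head subunit Atp5f1b, which makes the ATP, was at 1211 to 1356 CPM in IS control (median 1271), 1194 to 1452 in ID control (1329), 1245 to 1379 in IS insulin (1330.1) and 1220 to 1357 in ID insulin (1274). These ranges overlapped, and its log2 difference was 0.04 ± 0.04 for ID control and 0.04 ± 0.04 for IS insulin against IS control (SE, edgeR adjusted p = 0.682 and 0.653). Atp5f1d, the delta subunit of the head's central stalk, was at 132 to 160 CPM in IS control (147), 142 to 171 in ID control (155), 117 to 163 in IS insulin (152) and 126 to 159.98 in ID insulin (139). In ID insulin 6 of 8 libraries were below all 9 of ID control, though the groups overlapped. The log2 difference was -0.16 ± 0.05 (adjusted p = 0.0948), and it was called when ID insulin replicate 3 was left out (-0.19, adjusted p = 0.0415).

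The rotor ring is built from the c subunit, which 3 genes encode with the same mature protein. Atp5mc3 was at 207 to 231 CPM in IS control (median 209.9), 201 to 245 in ID control (229), 203 to 233 in IS insulin (217) and 202 to 236 in ID insulin (216). It had the lowest p of complex V between ID control and IS control, at 0.09 ± 0.04 (SE, edgeR adjusted p = 0.358), with overlapping groups. Atp5mc1 and Atp5mc2 differed by 0.07 ± 0.04 and 0.10 ± 0.05 in that comparison (adjusted p = 0.433 and 0.466). Atp5mc2 had an interaction of -0.18 ± 0.08 (adjusted p = 0.219).

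Among the stalk and membrane subunits, Atp5pf, coupling factor 6, was at 94.1 to 104 CPM in IS control (median 102), 93.0 to 116 in ID control (107), 99.6 to 134 in IS insulin (116) and 91.7 to 148 in ID insulin (105). In IS insulin 5 of 7 libraries were above all 8 of IS control, and the log2 difference was 0.21 ± 0.07 (SE, edgeR adjusted p = 0.155). Atp5me, the e subunit that takes part in dimer formation, was at 73.6 to 81.9 CPM in IS control (78.3), 75.6 to 91.5 in ID control (85.9), 73.4 to 93.6 in IS insulin (87.8) and 59.3 to 101 in ID insulin (76.8). Its widest range was that of ID insulin, set by replicates 3 and 6, and its interaction was -0.23 ± 0.09 (adjusted p = 0.197), or -0.30 without replicate 3 (adjusted p = 0.03).

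Atp5pb, the b subunit of the stalk, had a stepped pattern. It was at 0.71 to 1.57 CPM in most libraries and higher in 6 of the 32. These were IS control replicate 2 (5.48 CPM), ID control replicates 2 (6.45) and 9 (13.5), and ID insulin replicates 1 (12.5), 3 (9.91) and 8 (8.67). The 7 IS insulin libraries were at 0.976 to 1.45 CPM. The higher libraries lay in 3 of the 4 groups, and the log2 difference of 1.89 ± 0.72 between ID insulin and IS insulin rests on them (SE, edgeR adjusted p = 0.13). RefSeq lists 3 pseudogenes of Atp5pb, and whether its reads came from the gene itself was not tested.

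Few other genes of the pathway were called. Of 48 listed assembly factors, regulators and Ndufa4 genes in the table, 47 were tested, and 0 passed the test in any comparison except Cox14 between ID insulin and IS insulin. Cox14, a complex IV assembly factor, was at 28.1 to 37.5 CPM in IS insulin (median 30.2) and 20.4 to 30.1 in ID insulin (25.7). It fell by 0.29 on the log2 scale (SE 0.08, edgeR adjusted p = 0.0383), with some overlap of the groups. The 37.5 CPM were those of IS insulin replicate 2, and the next library of that group was at 31.6. The call of Cox14 was not rechecked under other settings or without single libraries. The 11 biogenesis regulators, among them Ppargc1a (the coactivator PGC-1 alpha), Nrf1, Gabpa and Tfam, had median differences from -0.04 to 0.02 over the 5 comparisons. Ppargc1a was 0.24 ± 0.09 higher in ID insulin than in IS insulin by its estimate, which did not pass the test (adjusted p = 0.124). Of the 13 mitochondrially encoded subunits none was called, which is also near the shares over all genes. Their medians were -0.06 for ID control and 0.24 for IS insulin against IS control. They were 0.11 for ID insulin against ID control, -0.19 for ID insulin against IS insulin and -0.145 for the interaction. Beside them stand, in the same order, 0.06, 0.13, -0.01, -0.07 and -0.12 for the nuclear members, and the difference between the lists was not tested. Of the 13, Mt-nd5 had the lowest adjusted p (edgeR, 0.0558), at a log2 difference of 0.19 ± 0.06 for ID insulin against ID control.

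Within ID control, pups of title numbers 70 and 69 were also compared, since that number stands for something the labels do not explain. In that fit of 9 libraries 0.22% of all genes and 0 of the tested members were called. The lowest adjusted p was that of Uqcrh, the hinge subunit of complex III, at a log2 difference of 0.20 ± 0.07 (SE, edgeR adjusted p = 0.387).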

How the data were processed

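RNA was sequenced from 32 rat hippocampi, and the values deposited by the authors are raw read counts for each gene. The submitters' processing notes name Trimmomatic (0.40), FastQC, HISAT2 (2.1.0), featureCounts and edgeR, and the builds Rnor_6.0 and mm10 without a role. Strand use and the treatment of reads with several matches are not given in the sources used here, so overlapping genes and near-identical copies are uncertain.

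Counts were tested in R (4.3.3) with edgeR (4.0.16): TMM scaling, filterByExpr by group (15439 of 32883 genes kept), glmQLFit and glmQLFTest (two-sided), 1 coefficient per group over 32 libraries (28 residual degrees of freedom), Benjamini-Hochberg adjustment over all genes tested, threshold 0.05. The script was tested on simulated data. CPM use TMM-scaled totals, and log2 CPM a prior count of 2. Errors are SE of log2 fold changes, with 95% intervals. Promoter windows are RefSeq's, matched by symbol. Members and lists were chosen with earlier results of these data known. Named members were those called, the iron or haem subunits, the isoform families, the lowest p of each complex per comparison, and called pathway genes; others (Uqcr11, Uqcrh, Atp5f1e, Cox7b, Atp5mg and Atp5f1b among them) were named after their values were seen. Alternatives were DESeq2 (1.42.0), limma (3.58.1) voom, other scaling factors and filters, subsets of libraries and a replicate block. No library of a group was a copy of another (smallest chi-square per gene 5.84).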

Additional observations from a re-analysis of the deposited data

Results flagged for a closer look

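In 25 of 188 sets of 1 member in 1 group, the highest or lowest library lay far from the others of its group by Dixon's criterion, which chance meets in about 1 in 20 sets. Of these, 14 were the highest value of ID insulin replicate 3. They were Uqcr11 (362 CPM), Uqcrb (2204) (66.9), Uqcrq (96.0), Cox6a1 (342), Cox7a2l (203), Cox7a2l2 (185), Cox7b (340.2), Cox8a (257), Atp5f1e (271), Atp5md (16.3), Atp5me (101), Atp5mf (209), Atp5mg (457) and Atp5pf (148). In the same group, Atp5if1, the ATP synthase inhibitor, was lowest in replicate 6 (70.02 CPM).

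In IS insulin the highest libraries were replicate 7 for Sdha (299.7 CPM), replicate 1 for Cox7a2l2 (160.2) and replicate 2 for Atp5f1a (795), and replicate 7 was the lowest for Cyc1 (162). In IS control, Sdhd was lowest in replicate 5 (101 CPM) and Atp5mc1 in replicate 4 (119), while Atp5pb was highest in replicate 2 (5.48) and Atp5po in replicate 8 (179). In ID control, Uqcr10 was highest in replicate 4 (83.8 CPM) and Atp5pb in replicate 9 (13.5).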

How the results depend on the processing

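Between ID control and IS control 0 members were called under all 14 other settings and all 32 fits without 1 library. Between IS insulin and IS control the count was 0 without any 1 library, and DESeq2 gave 1 (Uqcrc2, all genes 1.33%). Between ID insulin and ID control the count of 1 became 0 with the compared groups alone (all genes 1.86%) and with title number 69 (0.964%) or 70 (1.47%) alone. It became 3 with limma voom (all genes 5.05%) and 2 without IS insulin replicates 1 and 2 (all genes 4.2%). Over the fits without 1 library its range was 0 to 2. Between ID insulin and IS insulin 0 became 3 with voom (all genes 3.67%) and 4 without ID insulin replicates 3 and 6 (all genes 2.22%). It became 1 without IS insulin replicates 1 and 2 (all genes 1.84%), and the range without 1 library was 0 to 8. The interaction's 0 became 2 with DESeq2 (all genes 2.74%), 2 with voom (3.18%) and 3 without ID insulin replicates 3 and 6 (2.34%). Its range without 1 library was 0 to 7. The removal of pairs of libraries, the earlier edgeR method and the ribosomal protein mean as a covariate were chosen after seeing the data. The second title number as a replicate block gave 0, 1, 0, 0 and 0 members in the order of comparisons in the report, and turned the median between ID control and IS control from 0.06 to -0.002 and that between ID insulin and ID control from -0.01 to 0.05. All genes called under the block were 33, 703, 0, 177 and 9, against 45, 589, 19, 378 and 145. The 40 pairs of libraries with the same second number in different groups had correlations of -0.195 to 0.25 (median 0.003) and do not show a pairing, and the labels do not say what the number stands for. DESeq2 called 114, 819, 206, 723 and 423 genes in all, and over all settings the totals ranged from 23 to 242, 150 to 971, 0 to 206, 146 to 751 and 9 to 594. Of 1747 values of 27 named members outside the fits without 1 library, 0 reversed a called direction, 3 lost and 18 gained a call, and 86 changed sign with neither side called. Of the 2592 values without 1 library, 7 lost and 19 gained a call, and 88 changed sign uncalled. The causes were not tested. Cox4i2, Cox6a2, Cox6b2, Cox8b, Atp5md and Atp5pb had a mean under 10 CPM, and the part of depth in their spread was not tested.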
